A study of Mus musculus with 12 samples.

Results

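The change in the doxorubicin response of mouse embryonic stem cells that comes with loss of p53 was measured as an interaction: the drug response of p53 KO cells minus the drug response of wild-type cells. It compared 8 of the 12 libraries of the series, within a fit to 11 libraries. It was tested in 28643 of 54532 gene identifiers, of which 5798 (20.2%) had a called interaction. The p53 KO cells were lines labelled 1 and 2, each sampled after doxorubicin and after vehicle, and the wild-type cells were 2 libraries after doxorubicin and 2 after vehicle. The wild-type labels share the tag C4, and whether it names a single line is not given in the sources used here. All were E14 mouse embryonic stem cells, grown on gelatin with serum, leukemia inhibitory factor and the kinase inhibitors PD0325901 and CHIR99021. Treated cells received 1 uM doxorubicin, a topoisomerase II poison that breaks DNA, for 6 h and then drug-free medium. Their controls received DMSO for the same 6 h and then fresh medium. The time between the change of medium and the harvest, and the kind of edit in the p53 KO lines, are not given in the sources used here. Polyadenylated RNA was sequenced. Libraries of Dux KO lines, which lack an activator of 2-cell-stage genes, were not part of the interaction and serve below as a second set of p53-intact responses.

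The transcription factor p53 is stabilised when DNA breaks and binds paired decamers near its target genes. Its targets hold the cell cycle, start apoptosis, repair DNA and, through Mdm2, remove p53 again. In embryonic stem cells p53 is also known to lower pluripotency genes after damage and to act upstream of Dux and of genes of the 2-cell embryo.

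The 8 libraries held 23270358 to 32807053 counts. Trp53 itself had 95.5 and 42.6 CPM (counts scaled to the library total) in p53 KO lines 1 and 2 after doxorubicin, against 72.4 and 39.8 CPM in their controls. Wild-type cells had 135 and 133 CPM of Trp53 after doxorubicin, against 193 and 159 CPM in controls. The knockout lines were below every wild-type library but not at 0, and because the edited stretch is not known, the level of the whole gene does not check the labels. The lines also differed from each other: Ccng1, the p53 target cyclin G1, had 78.5 and 16.2 CPM in lines 1 and 2 after doxorubicin, against 70.6 and 20.2 CPM in controls. Among 6 embryonic stem cell markers, the summed level was 3769 to 4044 CPM in p53 KO controls and 4043 to 4116 CPM in wild-type controls. On the first principal component, which held 68% of the variance, p53 KO libraries after doxorubicin lay at -8.17 and -36.2, against -110.1 and -115.2 in their controls. Wild-type libraries lay at 223.8 and 240.3 after doxorubicin, against -95.5 and -99.0 in controls. One wild-type doxorubicin library, b, had 3.93% of its counts in 3 loci rich in ribosomal RNA, against at most 0.762% in the other 7.

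Fewer genes were called as responding to doxorubicin without p53, and 4199 of the 14997 wild-type responses were lost by the definition below. The test was edgeR's quasi-likelihood test with Benjamini-Hochberg adjustment over all tested genes, and calls were made below an adjusted p of 0.05. In p53 KO cells 2668 genes rose and 2318 fell after doxorubicin (17.4% of those tested), and in wild-type cells 8297 rose and 6700 fell (52.4%). Rises were 53.5% of the p53 KO calls and 55.3% of the wild-type calls, but 79.9% and 43.2% with limma on FPKM, and 36.7% of the p53 KO calls without treated wild-type library b. The interaction was higher in 2837 genes (9.9%) and lower in 2961 (10.3%), so 48.9% of its calls were higher. With limma on deposited FPKM values that share was 61.7%. These FPKM shares cover 14614 genes left by an FPKM filter. On FPKM without that filter, rises were 87.8% of the p53 KO calls and 64.7% of the wild-type calls. There, 46.4% of the interaction calls were higher. Without p53 KO line 1 or line 2 there were 8730 and 9415 interaction calls, without treated wild-type library a or b 3562 and 3100, and without wild-type control a or b 3181 and 3077. Of the genes called in p53 KO cells 76.8% were also called in wild type, which was 25.5% of the wild-type calls, and of these 3830 genes 3582 had the same sign and 248 opposite signs. More interaction genes were called different between the genotypes after the drug than under vehicle: 5581 of the 5798 interaction genes differed between p53 KO and wild type after doxorubicin (background 43.7%) and 119 differed under vehicle (background 0.887%). These contrasts share libraries with the interaction, so the counts describe it and do not test it.

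Each gene called in a response was sorted by the signs of the 3 calls. A response was lost where wild type was called, p53 KO was not and the interaction opposed the wild-type change; there were 2147 lost rises and 2052 lost falls. It was reduced where p53 KO cells kept a called change of the same sign but a smaller one (475 rises, 317 falls), and reversed where both were called with opposite signs (111 wild-type rises, 137 wild-type falls). It was kept where both were called with the same sign and the interaction was not (1343 rises, 1427 falls). It was enlarged where the p53 KO change was called in the direction of the interaction and wild type had no call or a smaller one (219 rises, 185 falls). Another 6968 genes, 4210 rises and 2758 falls, were called in wild type but not in p53 KO cells, without a called interaction, and stay undecided. Of the enlarged genes, 208 rises and 176 falls had no called wild-type change, so most of this class was a response called in p53 KO but not in wild-type cells. Treated and control libraries of the same line deviated from their group means together, and a fit with the line as a block put 5390 genes in the lost class, 2849 of them among the 4199, 2853 in reduced, 1093 in reversed, 4428 in kept and 1258 in enlarged. In that fit the p53 KO response had 10876 calls and the interaction 10796, and 721 of the lost rises and 619 of the lost falls had a called p53 KO response, so they were no longer lost. Strand may not have been used in the counts. Of the genes described below Apaf1, Arg2, Brca2, Cdkn1a, Diaph3, Arl15, Fto, Fas, Ephx1, Kcnj15, Jun, Lin28a, Myd88, Otx2, Parp14, Pou5f1, Sox2, Tap1, Eif4a2, Pola1 and Bhlhe40 overlap another annotated gene, so reads of the neighbour may be included.

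**Figure D1:**
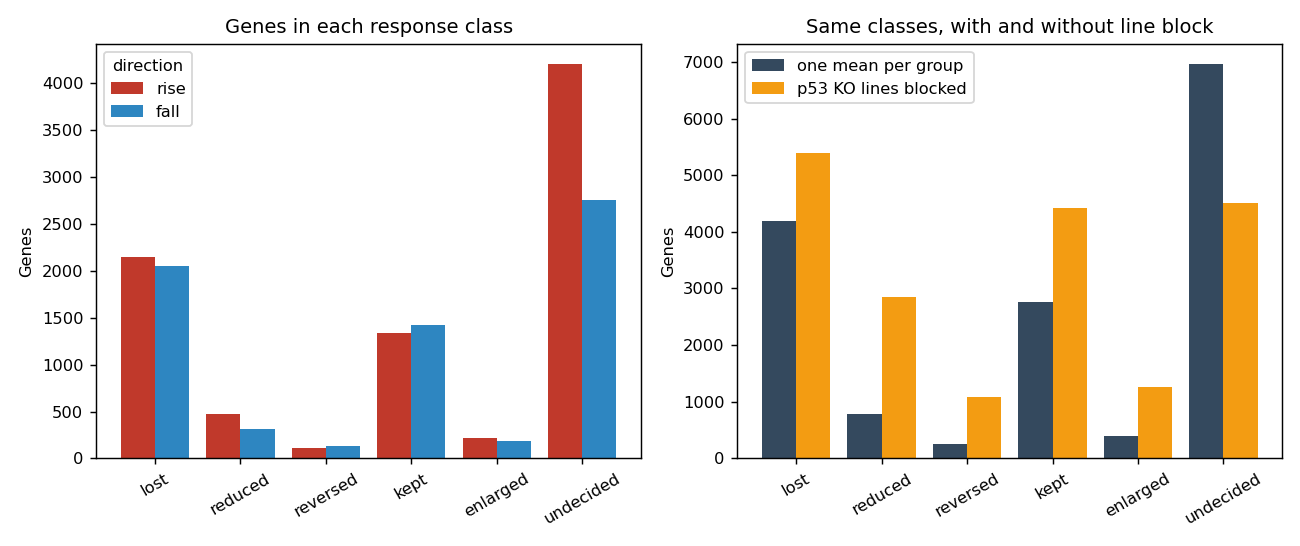
Numbers of genes per response class (y axis, genes). The left panel splits each class by direction of change (for reversed genes the wild-type direction) and the right panel gives the same classes with 1 mean per group and with the p53 KO lines as a block; lost responses number 4199 without the block, and reversed responses 248.

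**Figure D2:**
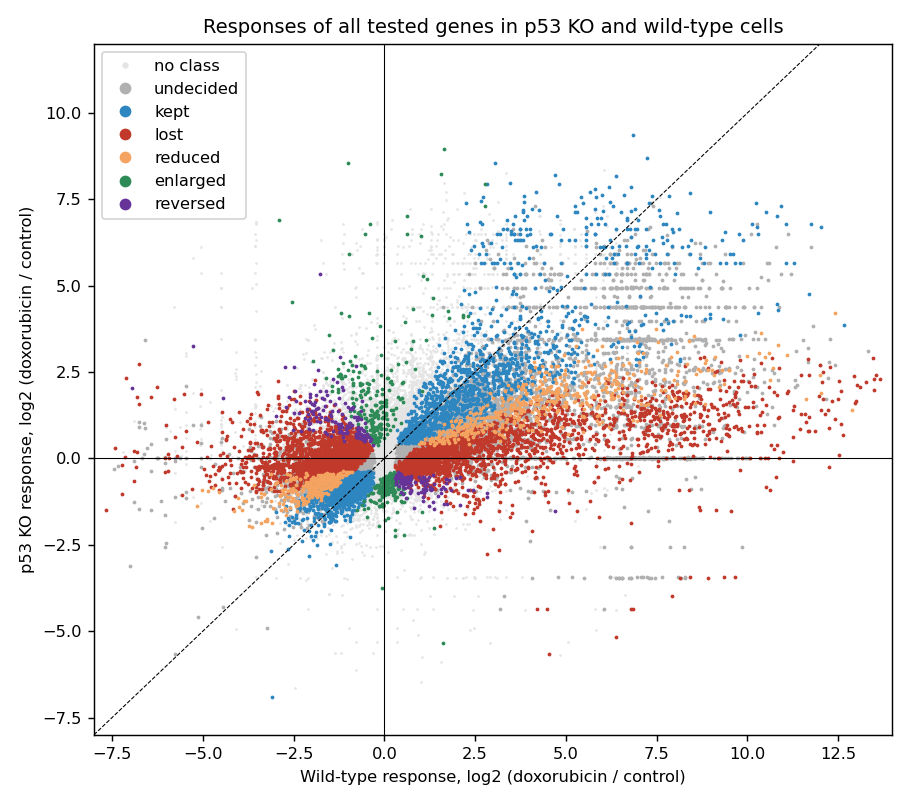
The p53 KO response (y axis) against the wild-type response (x axis), both as fitted log2 of doxorubicin over control, 1 point per tested gene, coloured by class; the dashed line marks equal responses and 6 genes lie outside the axes. Lost genes lie along the horizontal line at 0, kept genes along the dashed line, and reversed genes in the 2 corners of opposite sign. Rows of points at single values are genes with few counts.

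The classes differ in size of change as their definitions require, and these values describe them. Lost rises had a median log2 change of 0.23 in p53 KO cells and 2.45 in wild type. Lost falls had 0.02 in p53 KO cells and -1.49 in wild type. Reduced rises kept a median of 36.9% of the wild-type log2 change and reduced falls 41.4%. Kept rises had medians of 2.19 in p53 KO cells and 2.51 in wild type, and kept falls had -0.84 in p53 KO cells and -0.99 in wild type. An interaction that was not called does not show that responses were alike: its 95% interval lay within 1 log2 of 0 for 239 of 1343 kept rises and for 1107 of 1427 kept falls.

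The Dux KO response used no library of either response compared here. Across all tested genes 14.5% rose and 11.9% fell in it. Of the lost rises 1081 (50.3%) also rose in Dux KO cells, and of the lost falls 878 (42.8%) also fell. The shares were 73.9% and 89.0% for reduced rises and falls. They were 54.6% and 56.8% for kept rises and falls. They were 27.0% and 22.6% for reversed genes in the wild-type direction. In the opposite direction, 23 of the 111 reversed rises fell in Dux KO cells and 4 of the 137 reversed falls rose. Of the enlarged rises 37 (16.9%) rose in Dux KO cells, near the 14.5% of all genes, and of the enlarged falls 51 (27.6%) fell, against 11.9% of all genes.

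Known p53 targets rose less without p53, and many were already low before the drug. In 4 lists of p53 targets with 72 tested members, 11 rose and 8 fell in p53 KO cells, and 45 rose and 9 fell in wild type. The interaction was lower for 29 and higher for 3 of the 72, and the median interaction was -0.996, beside 0.05 over all tested genes. Of all tested genes 9.31% rose in p53 KO cells and 29.0% in wild type, and the interaction was lower for 10.3% and higher for 9.9%. Under vehicle 25 of the 72 were lower in p53 KO than in wild-type cells and 0 were higher by edgeR's test (6 at an unadjusted p under 0.05), where 0.747% of all genes were lower and 0.14% higher. After doxorubicin 53 of the 72 were lower in p53 KO cells, and 7 were higher (22.0% and 21.7% of all genes). Their summed level was 1913 to 2708 CPM in p53 KO cells after doxorubicin, against 2499 to 2993 CPM in p53 KO controls. In wild-type cells it was 11725 to 11776 CPM after doxorubicin, against 5084 to 5151 CPM in controls. With the line as a block, the interaction was lower for 50 of the 72.

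Among the feedback regulators, 3 of 14 rose and 2 fell in p53 KO cells, and the interaction was lower for 7 and higher for 1. Mdm2 (chr10:117688875-117710758, minus strand, mm10), the ubiquitin ligase that removes p53, had 69.8 and 52.4 CPM in p53 KO cells after doxorubicin, against 44.7 and 49.2 CPM in controls. In wild-type cells Mdm2 had 949.9 and 947 CPM after doxorubicin, against 161 and 148 CPM in controls. The drug groups did not overlap the controls in either genotype, and the wild-type treated libraries were 15.5-fold above the p53 KO ones. Its interaction was -2.23 (log2, SE 0.21, edgeR adjusted p = 0.00039). Its p53 KO change of 0.38 was not called (edgeR adjusted p = 0.11) but was called with the line as a block (0.37, adjusted p = 0.037), and its vehicle difference was -1.72 (edgeR adjusted p = 0.0022).

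Of 20 death targets 2 rose and 1 fell in p53 KO cells, 14 rose and 1 fell in wild type, and the interaction was lower for 6. Apaf1, the scaffold of the apoptosome, had 33.3 and 28.1 CPM in p53 KO cells after doxorubicin, against 31.6 and 30.5 CPM in controls, and in wild-type cells 227 and 228 CPM after doxorubicin against 66.4 and 63.9 CPM in controls. The p53 KO groups overlapped and the wild-type groups did not; the interaction was -1.82 (SE 0.17, edgeR adjusted p = 0.00036). Pmaip1, which encodes the BH3-only protein Noxa, had 35.0 and 10.4 CPM in p53 KO cells after doxorubicin, against 16.6 and 6.39 CPM in controls. In wild-type cells it had 406 and 435 CPM after doxorubicin, against 23.5 and 24.8 CPM in controls. Line 1 was above line 2 in both treatments, the interaction was -3.14 (SE 0.74, edgeR adjusted p = 0.018) but not called without any 1 of the wild-type libraries, and the p53 KO rise of 0.91 was called with the line as a block (adjusted p = 0.0001). Dffb, the caspase-activated nuclease, had 14.3 and 6.85 CPM in p53 KO cells after doxorubicin, against 8.55 and 7.72 CPM in controls, and in wild type 79.3 and 71.9 CPM after doxorubicin against 10.7 and 10.2 CPM in controls. Its interaction was -2.47 (SE 0.41, edgeR adjusted p = 0.0035).

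Cdkn1a, the CDK inhibitor p21 and the best known arrest target, was reversed. It had 47.0 and 26.2 CPM in p53 KO cells after doxorubicin, against 76.3 and 59.9 CPM in controls. In wild-type cells it had 188 and 186 CPM after doxorubicin, against 78.8 and 78.7 CPM in controls. The groups did not overlap in either genotype and moved in opposite directions, with a called fall of 0.90 (log2) in p53 KO cells (edgeR adjusted p = 0.033), a wild-type rise of 1.25 (adjusted p = 0.0022) and an interaction of -2.14 (SE 0.34, adjusted p = 0.0029). With limma on log2(FPKM + 1) its p53 KO fall of 0.53 was not called (adjusted p = 0.083), while the interaction was (-1.72, adjusted p = 0.0013). Under vehicle the genotypes were not called different for Cdkn1a (log2 -0.21, edgeR adjusted p = 0.76). Among the 14 arrest targets, 2 rose and 3 fell in p53 KO cells, 10 rose and 2 fell in wild type, and the interaction was lower for 5.

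Of the 72 p53 targets 8 had a kept response, near the share over all tested genes (2770 of 28643). In those described here the level was far lower in p53 KO than in wild-type cells. Trp53inp1, a stress-induced partner of p53, had 71.2 and 58.2 CPM in p53 KO cells after doxorubicin, against 41.0 and 31.2 CPM in controls, and in wild-type cells 744 and 789.6 CPM after doxorubicin against 263 and 285 CPM in controls. Plk2, a polo-like kinase, had 30.3 and 7.78 CPM in p53 KO cells after doxorubicin, against 2.34 and 1.20 CPM in controls, and in wild-type cells 495 and 565 CPM after doxorubicin against 38.4 and 32.3 CPM in controls. Each rose in both genotypes with no called interaction, while the treated wild-type libraries were 11.9-fold (Trp53inp1) and 27.8-fold (Plk2) above the p53 KO ones. Plk2 rose by 3.44 in p53 KO cells (log2, edgeR adjusted p = 0.0065) and by 3.91 in wild type (adjusted p = 0.00037), and its interaction of -0.47 had a 95% interval of -2.16 to 1.22. With the line as a block the Trp53inp1 interaction of -0.64 was called (adjusted p = 0.0032, against 0.071 without, both edgeR). Ephx1, an epoxide hydrolase, had the same pattern, though on FPKM its p53 KO rise was not called (limma adjusted p = 0.13). The p53 KO rise of Fas, the death receptor, was uncertain: it was 3.18 (edgeR adjusted p = 0.045), but 1.64 without line 1 (adjusted p = 0.25) and 0.04 with limma on FPKM (adjusted p = 0.73), and it was not called without any 1 of the wild-type libraries. Without the treated library of line 1 the Fas p53 KO response was 1.01 and without that of line 2 it was 4.01. Fas had 1.73 and 0.214 CPM in p53 KO cells after doxorubicin, against 58.5 and 59.8 CPM in treated wild-type cells, which were 60.7-fold higher on average. With limma on log2(FPKM + 1), which compresses low values, the interaction was called lower for Plk2, Ephx1 and Fas (adjusted p = 0.017, 0.00012 and 2.3e-05).

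In the p53 targets Ccng1, Eda2r, Phlda3, Btg2 and Perp the interaction was not called, but was called with the line as a block; limma on FPKM called it for Eda2r and Perp (adjusted p = 0.007 and 0.003). Eda2r, a death-domain receptor, had 8.43 and 0.107 CPM in lines 1 and 2 after doxorubicin, against 10.3 and 0.233 CPM in controls, and in wild type 159.8 and 172 CPM after doxorubicin against 66.1 and 68.9 CPM in controls. Without the block its interaction was -1.58 (SE 1.75, edgeR adjusted p = 0.58) and with it the adjusted p was 2.3e-05. Both lines were far below wild type in Eda2r and differed from each other by more than either changed with the drug. Without the control of line 1 the uncalled interactions of Eda2r, Phlda3 and Btg2 turned positive.

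**Figure D3:**
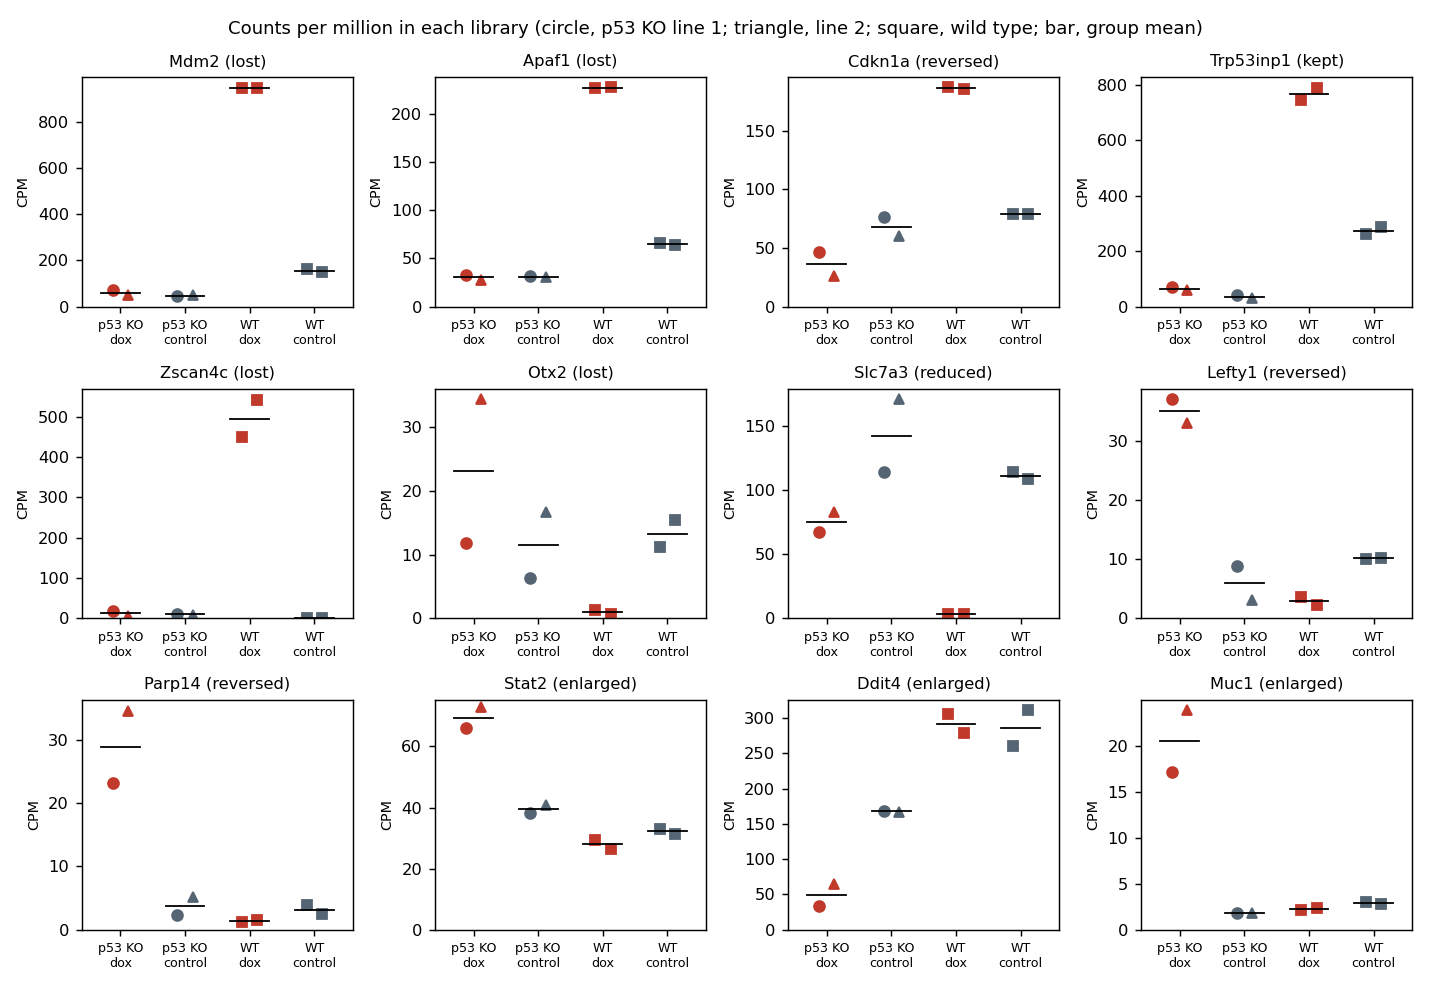
CPM (y axis, from 0) of 12 genes in every library, with the p53 KO groups left of the wild-type groups and doxorubicin left of control; circles are line 1, triangles line 2, squares wild type and bars group means. Mdm2 sits at 949.9 and 947 CPM in the treated wild-type libraries and at or below 161 CPM in the other 6, and Lefty1 and Parp14 are highest in the treated p53 KO libraries.

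RefSeq promoters of GRCm38.p6, from 250 bases before to 50 after an annotated start, were matched by symbol for 16074 of the tested genes and searched on both strands for 6 motifs. A gene may have several annotated starts, and a match at any of them counted. One was the p53 site and another the interferon core, a pair of GAAA with 2 free bases between. The others were the sequence TTTGAA, the box called CCAAT, the AP-1 element TGACTCA read on both strands, and the cyclic AMP element TGACGTCA. The p53 site, 2 joined decamers without spacer and with the core C and G of each fixed, was searched at 3 limits, and the looser ones were used because the strict one gave few matches. At no mismatch it was in 0 of 59 p53 target promoters and in 0.0124% of all; at up to 1 mismatch in 4 (6.78%) and 0.0622%; at up to 2 in 7 (11.9%) and 0.429%. Over the 12 class directions its share at up to 2 mismatches ran between 0% and 1.2%. The 7 matches are shown because they lie in targets of several classes, none of them kept or enlarged: reversed (Cdkn1a), lost (Gtse1, Ckap2), reduced (Trp73), undecided (Zfp365) and without a class (Ccng1, Rps27l). Cdkn1a, Ccng1, Gtse1 and Rps27l had 1 mismatch and the other 3 had 2. The sites are written 5′ to 3′ on the strand of the gene, all in capitals because the whole stretch is the match.
Cdkn1a, chr17:29090928-29090947, plus strand: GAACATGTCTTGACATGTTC
Ccng1, chr11:40755462-40755481, minus strand: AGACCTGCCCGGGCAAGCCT
Gtse1, chr15:85859945-85859964, plus strand: GAGCAAGTTGGGGCTTGCCT
Rps27l, chr9:66946296-66946315, plus strand: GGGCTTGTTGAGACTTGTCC
Ckap2, chr8:22186003-22186022, minus strand: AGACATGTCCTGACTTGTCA
Trp73, chr4:154097220-154097239, minus strand: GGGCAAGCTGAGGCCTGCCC
Zfp365, chr10:67912706-67912725, minus strand: AGACTAGGCTGGGCAAGACT

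A promoter of Cdkn1a is printed whole, as the 250 bases before an annotated start (chr17:29090729-29090978, plus strand), because the gene carries both a called rise in wild type and a called fall in p53 KO cells. Capitals mark the p53 site, which lies 51 to 32 bases before that start. This need not be the main start of the gene. A match is a string of letters and no measure of binding.
Cdkn1a upstream: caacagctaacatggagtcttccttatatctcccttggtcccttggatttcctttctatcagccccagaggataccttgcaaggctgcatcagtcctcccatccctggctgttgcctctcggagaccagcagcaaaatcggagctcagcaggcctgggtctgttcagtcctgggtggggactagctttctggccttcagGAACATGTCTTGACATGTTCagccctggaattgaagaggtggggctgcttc

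Genes of the 2-cell embryo were the largest of the lost rises. In multigene families 1 of 29 members rose and 1 fell in p53 KO cells, 25 rose and 1 fell in wild type, and the interaction was lower for 23. Their median log2 change was 0.91 in p53 KO cells and 8.42 in wild type. It was -0.44 in p53 KO cells without line 1 and 1.50 without line 2, and with the line as a block 10 rose and 1 fell. In Dux KO cells 0 rose and 1 fell by edgeR (0 and 2 at an unadjusted p under 0.05). The median difference of p53 KO from wild-type cells was 2.53 (log2) under vehicle and -4.78 after doxorubicin, beside a median interaction of -6.94. Under vehicle 1 of the 29 was called higher and 0 lower by edgeR (14 and 0 at an unadjusted p under 0.05). Zscan4c, a zinc-finger protein of the 2-cell stage, had 18.7 and 5.78 CPM in p53 KO cells after doxorubicin, against 9.61 and 8.82 CPM in controls, and in wild-type cells 449 and 543 CPM after doxorubicin against 1.17 and 1.50 CPM in controls. The wild-type controls were the lowest of the 8 libraries and the treated wild-type ones the highest, with an interaction of -8.13 (SE 0.71, edgeR adjusted p = 0.00042). Reads of such families can be split between near-identical copies, so single members are uncertain.

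Of 12 2-cell-stage genes outside multigene families, 3 rose in p53 KO cells, 12 rose in wild type and the interaction was lower for 9. Arg2, the mitochondrial arginase, had 2.57 and 1.18 CPM in p53 KO cells after doxorubicin, against 1.13 and 0.999 CPM in controls, and in wild-type cells 58.8 and 75.1 CPM after doxorubicin against 0.155 and 0.374 CPM in controls. Its interaction was -7.14 (SE 0.62, edgeR adjusted p = 0.00034). Kcnj15, a potassium channel, was among the 6 lost rises with the largest interaction. It had 0.208 and 0.143 CPM in p53 KO cells after doxorubicin, against 0.0731 and 0 CPM in controls, and 32.7 and 37.6 CPM in wild type after the drug, where both controls had 0 counts; the wild-type rise was at least 307-fold, taking 3 counts per library as the floor. Its interaction was not called without line 1 or without the control of line 1. Unlike Zscan4c, Kcnj15 rose in Dux KO cells (log2 11.62, edgeR adjusted p = 0.00022).

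Some immediate early and Wnt genes also rose less without p53. Over all tested genes 9.31% rose and 8.09% fell in p53 KO cells, and 29.0% rose and 23.4% fell in wild type. The interaction was lower for 10.3% of all tested genes and higher for 9.9%. Of 18 AP-1 and immediate early genes 4 rose and 1 fell in p53 KO cells, 14 rose and 2 fell in wild type, and the interaction was lower for 9 and higher for 1. Jun, a subunit of AP-1, had 8.95 and 8.28 CPM in p53 KO cells after doxorubicin, against 5.12 and 4.06 CPM in controls, and in wild-type cells 66.5 and 76.4 CPM after doxorubicin against 2.72 and 2.09 CPM in controls. It was reduced: it rose by 0.91 in p53 KO cells (log2, edgeR adjusted p = 0.013) and by 4.89 in wild type, with an interaction of -3.98 (SE 0.27, adjusted p = 0.0002). Of 20 Wnt ligands and targets 1 rose and 1 fell in p53 KO cells, 13 rose and 1 fell in wild type, and 8 were lost rises. The interaction was lower for those 8 but for 3 of the 20 with limma on FPKM. Wnt3, a Wnt ligand, had 2.57 and 1.21 CPM in p53 KO cells after doxorubicin, against 0.512 and 0.999 CPM in controls, and in wild-type cells 49.4 and 42.3 CPM after doxorubicin against 0.699 and 0.299 CPM in controls. Its interaction was -5.21 (SE 0.67, edgeR adjusted p = 0.0013), and its p53 KO rise of 1.26 was called only with the line as a block (adjusted p = 0.028). The medium held CHIR99021, which activates Wnt signalling, in every group.

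Pluripotency genes fell less without p53, and by edgeR 6 of the 12 core genes were reduced falls and 0 were lost. Of 12 core pluripotency genes 1 rose and 7 fell in p53 KO cells, 10 fell in wild type, and the interaction was higher for 7 and lower for 1. Their median log2 change was -0.61 in p53 KO cells and -1.64 in wild type, beside 0.18 and 0.13 over all tested genes. Of all tested genes 8.09% fell in p53 KO cells and 23.4% in wild type, and the interaction was higher for 9.9% and lower for 10.3%. Of 25 naive pluripotency genes 9 fell in p53 KO cells, 2 rose and 19 fell in wild type, and 12 had a higher interaction and 3 a lower one. With limma on FPKM 3 core genes fell and 1 rose in p53 KO cells, and 5 naive genes fell and 1 rose. In that fit the interaction was higher for 9 core and 12 naive genes and lower for 0 and 2. The core median there was -0.29 in p53 KO and -1.39 in wild-type cells. Pou5f1, the core factor Oct4, had 696 and 599 CPM in p53 KO cells after doxorubicin, against 1001 and 994 CPM in controls, and in wild-type cells 156 and 145 CPM after doxorubicin against 899 and 929 CPM in controls. The groups did not overlap in either genotype and p53 KO controls lay above the wild-type controls. The p53 KO fall was 0.62 (log2, edgeR adjusted p = 0.015), the wild-type fall 2.60 (adjusted p = 6.2e-06) and the interaction 1.98 (SE 0.19, adjusted p = 0.0004). Nanog, Sox2, Esrrb, Prdm14 and Fgf4 were also reduced falls, with interactions between 1.41 and 2.27. Leaving out treated wild-type library b ended the call of Nanog and Sox2, and leaving out wild-type control a that of Nanog.

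The reduced and lost falls with the largest interactions lay outside the core factors. Slc7a3, a cationic amino acid transporter, had 67.0 and 83.1 CPM in p53 KO cells after doxorubicin, against 114 and 171 CPM in controls, and in wild-type cells 3.51 and 3.39 CPM after doxorubicin against 114 and 109 CPM in controls. Its interaction was 4.09 (SE 0.29, edgeR adjusted p = 0.0002). Aplp1, a relative of the amyloid precursor protein, had 77.5 and 58.2 CPM in p53 KO cells after doxorubicin, against 59.9 and 48.1 CPM in controls, and in wild-type cells 1.87 and 2.13 CPM after doxorubicin against 35.9 and 34.5 CPM in controls. Its wild-type fall was lost, with an interaction of 4.47 (SE 0.31, edgeR adjusted p = 0.0002). With the line as a block it rose in p53 KO cells by 0.32 (adjusted p = 0.022). Tcl1, a co-activator of AKT, had 49.6 and 69.4 CPM in p53 KO cells after doxorubicin, against 64.3 and 97.1 CPM in controls, and in wild-type cells 4.31 and 2.26 CPM after doxorubicin against 80.7 and 85.2 CPM in controls. Its interaction was 4.21 (SE 0.43, edgeR adjusted p = 0.0005), and with the line as a block it fell in p53 KO cells by 0.43 (adjusted p = 0.044). Otx2, a homeobox factor of the step out of naive pluripotency, had 11.8 and 34.4 CPM in p53 KO cells after doxorubicin, against 6.29 and 16.7 CPM in controls, and in wild-type cells 1.29 and 0.731 CPM after doxorubicin against 11.1 and 15.4 CPM in controls. Both lines lay higher after the drug than in their own controls, though line 2 was above line 1, and the interaction was 4.71 (SE 0.85, edgeR adjusted p = 0.0054). The p53 KO rise of 0.98 was called with the line as a block (adjusted p = 0.0041).

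Lefty1 and Lefty2, secreted inhibitors of Nodal, were among the reversed falls. Lefty1 had 37.1 and 33.2 CPM in p53 KO cells after doxorubicin, against 8.88 and 3.13 CPM in controls, and in wild-type cells 3.51 and 2.16 CPM after doxorubicin against 10.1 and 10.1 CPM in controls. Lefty2 had 203 and 112 CPM in p53 KO cells after doxorubicin, against 73.0 and 28.0 CPM in controls, and in wild-type cells 13.4 and 11.2 CPM after doxorubicin against 48.1 and 53.6 CPM in controls. In both genes treated p53 KO libraries were the highest of the 8 and treated wild-type libraries were below their controls. The interactions were 4.39 for Lefty1 (SE 0.69) and 3.69 for Lefty2 (SE 0.63), with edgeR adjusted p of 0.003 and 0.0042. Tdgf1, the Nodal co-receptor Cripto, was a reduced fall with an interaction of 3.92 (SE 0.34, edgeR adjusted p = 0.00034). Over 18 Nodal and FGF genes the interaction was higher for 6, beside 9.9% of all genes higher. Lin28a, which blocks the maturation of let-7 miRNAs, had 112 and 148 CPM in p53 KO cells after doxorubicin, against 76.5 and 75.2 CPM in controls, and in wild-type cells 26.6 and 37.0 CPM after doxorubicin against 107 and 90.2 CPM in controls. Its interaction was 2.41 (SE 0.30, edgeR adjusted p = 0.0011).

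Interferon response genes were spread over the classes, with 4 of 27 among the enlarged rises and 5 among the kept rises. These classes held 0.765% and 4.69% of all tested genes. Of the 27 genes 12 rose and 0 fell in p53 KO cells by edgeR, beside 9.31% and 8.09% of all genes. In p53 KO cells 0 fell at an unadjusted p under 0.05, and 0 by DESeq2. In wild type 13 rose and 5 fell, beside 29.0% and 23.4% of all genes. The interaction was higher for 7 and lower for 2, beside 9.9% and 10.3% of all genes. These counts were 7 and 5 with DESeq2 and 5 and 3 with limma on FPKM. With the line as a block 19 rose in p53 KO cells. Ddx58, the RNA sensor RIG-I, had 43.4 and 45.5 CPM in p53 KO cells after doxorubicin, against 15.9 and 19.6 CPM in controls, and in wild-type cells 14.5 and 13.8 CPM after doxorubicin against 16.9 and 16.8 CPM in controls. Stat2, a subunit of the interferon-stimulated factor, had 66.0 and 72.8 CPM in p53 KO cells after doxorubicin, against 38.3 and 40.8 CPM in controls, and in wild-type cells 29.3 and 26.6 CPM after doxorubicin against 32.9 and 31.4 CPM in controls. In both genes the treated p53 KO libraries were above the other 6. Interactions were 1.57 for Ddx58 (SE 0.26) and 1.01 for Stat2 (SE 0.18), with edgeR adjusted p of 0.004 and 0.0055. Parp14, an interferon-induced ADP-ribosyltransferase, had 23.2 and 34.6 CPM in p53 KO cells after doxorubicin, against 2.34 and 5.13 CPM in controls, and in wild-type cells 1.16 and 1.60 CPM after doxorubicin against 3.85 and 2.54 CPM in controls. It was reversed, with an interaction of 4.16 (SE 0.59, edgeR adjusted p = 0.0019). The list did not move as a whole: Tap1, the peptide transporter of antigen presentation and also a listed p53 target, rose in both genotypes and less in p53 KO cells (Tap1 interaction -2.75, SE 0.61, edgeR adjusted p = 0.013). That call was lost without p53 KO line 2 (-1.51, adjusted p = 0.087) and without the control of line 2 alone (-1.97, adjusted p = 0.17). Oas1a, an antiviral nucleotide synthase, fell in wild type and was a lost fall (interaction 3.26, SE 0.33, edgeR adjusted p = 0.00048).

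The interferon core, part of the element bound by interferon-stimulated factors, was in 14 of 20 interferon list promoters (70%) and in 3.73% of all matched promoters. Across the 12 class directions its share ran between 2.41% and 6.29%, the highest among enlarged rises. The other 4 motifs were searched too: over the class directions TTTGAA was in 10.8% to 20.2% (16.4% of all), CCAAT in 41.1% to 53.3% (42.3% of all), the AP-1 element in 0% to 7.67% (5.21% of all) and the cyclic AMP element in 2.06% to 5.32% (2.92% of all). The median number of CpG in a window ran from 9 in undecided rises to 25 in reversed rises (16 in all). These values are descriptions with no test, and the promoters shown were chosen after the values were seen. The 250 bases before an annotated start of each of 2 enlarged rises are printed with the interferon core in capitals, which reads as a pair of TTTC where it lies on the other strand. Stat2 lies at chr10:128270248-128270497 on the plus strand and Myd88, an adaptor of Toll-like receptors, at chr9:119340019-119340268 on the minus strand. Myd88 had 32.0 and 27.1 CPM in p53 KO cells after doxorubicin, against 12.6 and 8.12 CPM in controls, and in wild-type cells 8.78 and 8.27 CPM after doxorubicin against 8.16 and 9.76 CPM in controls. Its called interaction was lost without wild-type control b or treated wild-type library b.
Stat2 upstream: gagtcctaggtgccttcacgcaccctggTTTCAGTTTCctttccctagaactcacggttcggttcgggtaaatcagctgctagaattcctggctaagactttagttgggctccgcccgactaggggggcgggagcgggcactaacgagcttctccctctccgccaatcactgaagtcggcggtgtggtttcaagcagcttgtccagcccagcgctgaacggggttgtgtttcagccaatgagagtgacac
Myd88 upstream: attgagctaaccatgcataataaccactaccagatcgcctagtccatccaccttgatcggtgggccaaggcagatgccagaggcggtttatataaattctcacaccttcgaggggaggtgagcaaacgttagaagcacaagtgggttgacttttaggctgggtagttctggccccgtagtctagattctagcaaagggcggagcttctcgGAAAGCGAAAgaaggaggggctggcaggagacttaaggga

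Other enlarged responses were of mixed function. Muc1, a membrane mucin, had 17.1 and 23.8 CPM in p53 KO cells after doxorubicin, against 1.83 and 1.80 CPM in controls, and in wild-type cells 2.19 and 2.39 CPM after doxorubicin against 3.03 and 2.77 CPM in controls. Its interaction was 3.83 (SE 0.37, edgeR adjusted p = 0.00041), the treated p53 KO libraries lay above all others, and Hal, Trh, Crispld2 and Cd37 were among those that followed it by size. The interaction of Trh and Crispld2 was not called without any 1 of the wild-type libraries, and that of Cd37 without 3 of the 4. Enlarged falls included Ddit4, an inhibitor of mTORC1, which had 33.3 and 65.1 CPM in p53 KO cells after doxorubicin, against 169 and 167 CPM in controls. In wild-type cells Ddit4 had 305 and 279 CPM after doxorubicin, against 260.2 and 311 CPM in controls. The wild-type groups overlapped, the p53 KO groups did not, and the interaction was -1.80 (SE 0.36, edgeR adjusted p = 0.0086). Ccng2, a non-cycling cyclin, and Bhlhe40, a repressor of the clock, had interactions of -1.81 (SE 0.33) and -1.81 (SE 0.37), with edgeR adjusted p of 0.0056 and 0.0099; that of Bhlhe40 was not called without wild-type control a.

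Reversed rises included many long genes. Their median span was 89.451 kb and 23.4% were at least 200 kb long, beside 13.502 kb and 3.85% over all tested genes. Reversed falls had 12.996 kb and 0%, and lost falls 11.962 kb and 0.682%. Other classes held long genes too: enlarged falls had 63.34 kb and 12.4%, and reduced rises 45.067 kb and 14.9%. Kept rises had 32.155 kb and 11.5%, and lost rises 26.589 kb and 8.85%. Of the reversed rises 89.2% were protein-coding, beside 62.9% of all tested genes. Diaph3, a formin (chr14:86655367-87141235), had 24.1 and 11.2 CPM in p53 KO cells after doxorubicin, against 57.1 and 33.7 CPM in controls, and in wild-type cells 199 and 261 CPM after doxorubicin against 55.2 and 54.1 CPM in controls. Arl15, a small GTPase (chr13:113794505-114157461), had 18.1 and 21.3 CPM in p53 KO cells after doxorubicin, against 45.0 and 52.5 CPM in controls, and in wild-type cells 158 and 207 CPM after doxorubicin against 58.3 and 57.7 CPM in controls. In both genes every treated p53 KO library was the lower of its line's pair and every treated wild-type library was above all others. Interactions were -3.43 for Diaph3 (SE 0.49) and -2.96 for Arl15 (SE 0.23), with edgeR adjusted p of 0.0019 and 0.00024. Fto, an RNA demethylase, had an interaction of -2.76 (SE 0.36, edgeR adjusted p = 0.0013). A short gene of the class was Mcl1, a survival factor of the BCL2 family, with 172 and 195 CPM in p53 KO cells after doxorubicin, against 245 and 385 CPM in controls. In wild-type cells Mcl1 had 565 and 622 CPM after doxorubicin, against 342 and 369 CPM in controls, with an interaction of -1.52 (SE 0.27, edgeR adjusted p = 0.0051).

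Span went with the response over protein-coding genes with a mean of at least 5 CPM, too. In the 2643 genes under 10 kb the median response was 0.03 in p53 KO and -0.32 in wild-type cells, and in the 621 genes of at least 200 kb it was -0.15 in p53 KO and 0.60 in wild-type cells. In Dux KO cells these medians were -0.02 and -0.16. The interaction was lower for 40.74% of the longest genes and for 10.93% of the shortest, and higher for 2.90% and 19.9%. The FPKM were divided by whole gene spans, but whether the counts include introns or use strand is not known. If introns were counted, levels of long genes include reads that may come from unspliced RNA. The part of unspliced RNA, and of the higher ribosomal share of wild-type library b, in this pattern was not tested. The reversed rises overlapped another annotated gene in 73.9% of cases, against 70.8% of enlarged falls and 56.0% of tested genes.

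**Figure D4:**
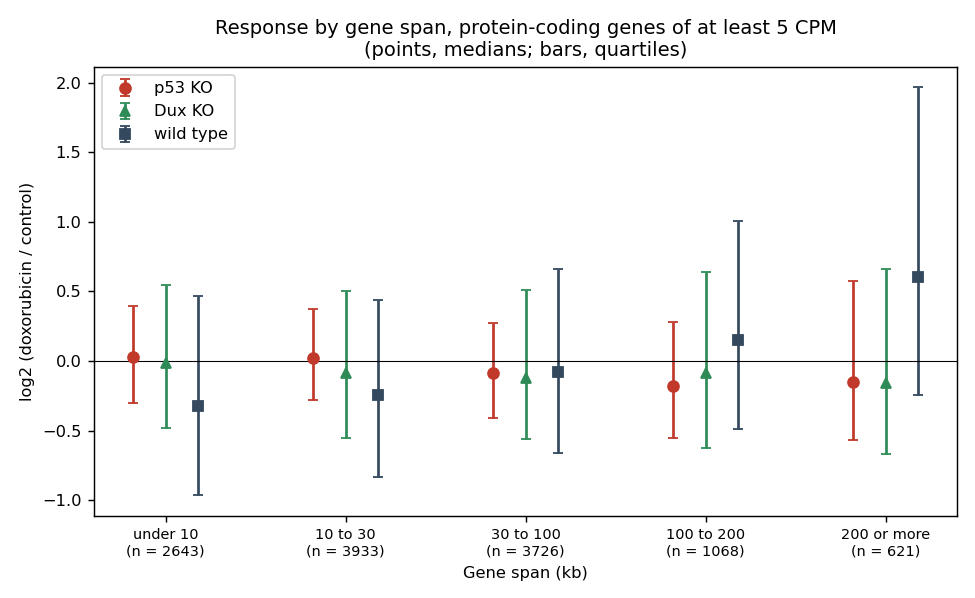
Median log2 response to doxorubicin (y axis) in 5 bins of gene span (x axis, kb) for p53 KO, Dux KO and wild-type cells, with quartiles as bars. Wild-type medians run from -0.32 in the shortest bin to 0.60 in the longest, while p53 KO medians lie between -0.18 and 0.03.

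The kept falls included genes of protein synthesis and replication. Of 27 cytosolic ribosomal protein genes 21 fell in p53 KO cells (8.09% of all genes fell), 25 fell in wild type, and 19 were kept. Their median log2 change was -0.81 in p53 KO cells and -1.19 in wild type; in FPKM values with limma 3 fell in p53 KO cells. Eif4a2, a helicase of translation initiation, had 318 and 234 CPM in p53 KO cells after doxorubicin, against 934 and 1172 CPM in controls, and in wild-type cells 269 and 260.3 CPM after doxorubicin against 898 and 982 CPM in controls. The libraries after doxorubicin were at about the same level in both genotypes, and the interaction of -0.10 had a 95% interval of -0.63 to 0.43. Pola1, the catalytic subunit of DNA polymerase alpha, had 40.6 and 52.7 CPM in p53 KO cells after doxorubicin, against 168 and 228 CPM in controls, and in wild-type cells 56.8 and 58.6 CPM after doxorubicin against 184 and 199 CPM in controls. Its interaction was -0.36 (SE 0.25, edgeR adjusted p = 0.35), and with the line as a block it was called (adjusted p = 0.047). Of the kept falls 26.1% were annotated pseudogenes, beside 12.3% of all tested genes, and reads of ribosomal protein pseudogenes can belong to their parent genes.

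Some cell cycle and repair genes fell in each genotype. Over all tested genes 8.09% fell in p53 KO cells and 23.4% fell in wild type. The interaction was higher for 9.9% of all tested genes and lower for 10.3%. Of 31 G1/S and replication genes 8 fell in p53 KO cells, 25 fell in wild type, and the interaction was higher for 8. Of 26 G2/M genes 9 fell in p53 KO cells, 4 rose and 11 fell in wild type, and the interaction was higher for 1 and lower for 3. Of 29 DNA repair genes 1 rose and 9 fell in p53 KO cells, 3 rose and 16 fell in wild type, and 7 had a higher and 3 a lower interaction. With DESeq2 the falls of G2/M genes numbered 11 in p53 KO cells and 10 in wild type. On FPKM with limma 1 repair gene fell in p53 KO cells, and no G1/S or G2/M gene did. Brca2, a recombination factor, had 139.9 and 150.2 CPM in p53 KO cells after doxorubicin, against 98.0 and 106 CPM in controls, and in wild-type cells 114 and 128 CPM after doxorubicin against 177 and 179 CPM in controls. The groups did not overlap and moved in opposite directions, and the interaction was 1.06 (SE 0.16, edgeR adjusted p = 0.0025). Of 18 amino-acid stress genes under ATF4, 9 fell in p53 KO cells and 4 rose and 10 fell in wild type, with 6 kept. Atf4 itself fell by 0.91 in p53 KO cells (log2, edgeR adjusted p = 0.0043) and by 0.65 in wild type (adjusted p = 0.003).

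**Figure D5:**
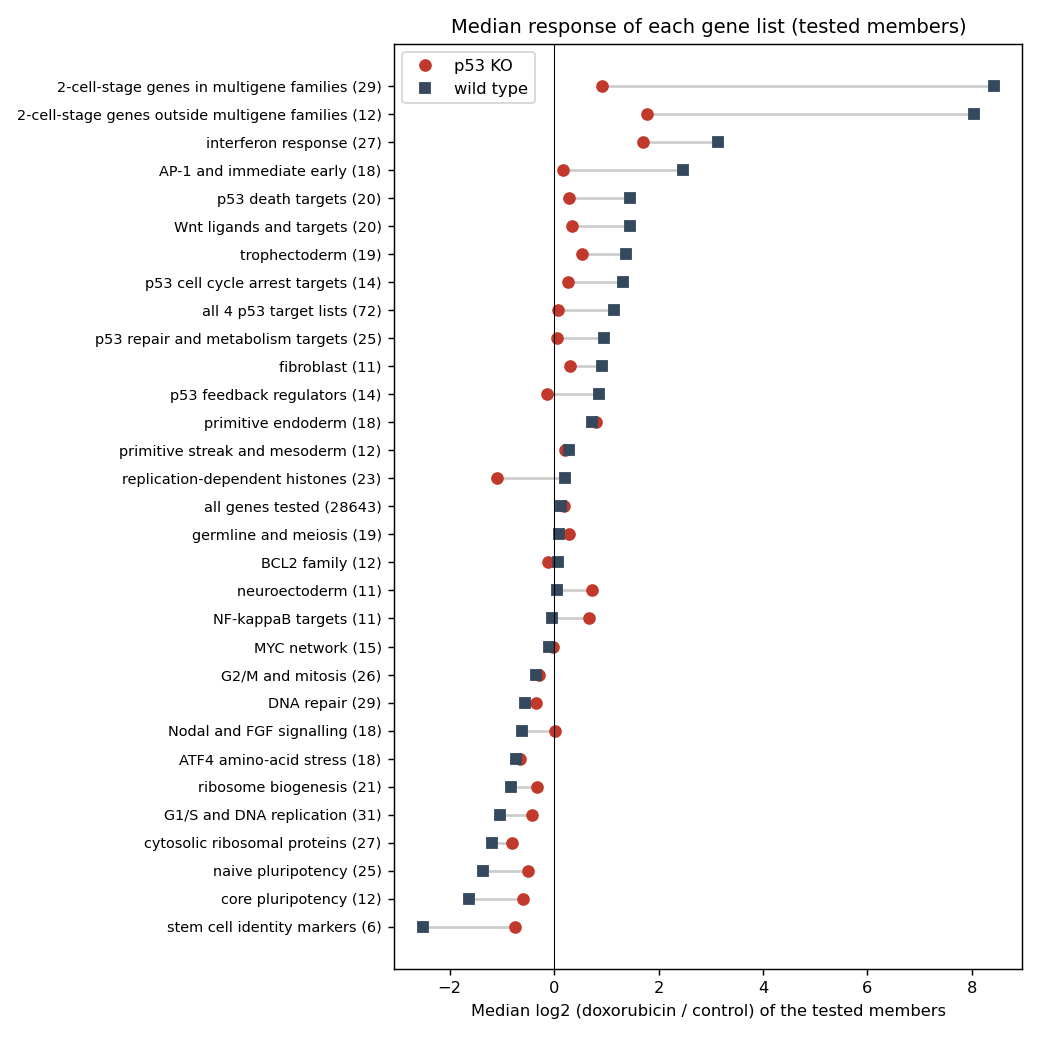
Median log2 response (x axis) of the tested members of each gene list, their number in brackets, in p53 KO (circles) and wild-type cells (squares), ordered by the wild-type median. The widest gap is that of the 2-cell-stage genes in multigene families, 0.91 in p53 KO and 8.42 in wild-type cells, and all 4 p53 lists have 0.07 in p53 KO and 1.15 in wild-type cells.

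The interaction was called for 20.2% of all tested genes, and most members of the lineage lists had no call. Of 19 trophectoderm genes the interaction was lower for 2, of 18 primitive endoderm genes lower for 1 and higher for 2, of 11 neuroectoderm genes lower for 1 and higher for 1, and of 12 mesoderm genes lower for 3 and higher for 1. Of 11 fibroblast markers 1 rose in p53 KO cells, near the 9.31% of all tested genes. In wild type 6 of these markers rose and 1 fell, beside 29.0% and 23.4% of all tested genes. The interaction was lower for 2 of them, beside 10.3% of all tested genes. The summed fibroblast level was 915.9 to 1648 CPM in p53 KO cells after doxorubicin, against 766 to 1456 CPM in controls, and in wild type 622 to 705 CPM after doxorubicin against 843 to 852 CPM in controls. Its part in the results was not tested. In bulk RNA, fewer cells of a state and less RNA per cell cannot be told apart.

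The remaining lists held smaller numbers of calls. Over all tested genes the interaction was higher for 9.9% and lower for 10.3%. Of all tested genes 9.31% rose and 8.09% fell in p53 KO cells, and 29.0% rose and 23.4% fell in wild type. Of 25 p53 targets of repair and metabolism 5 rose and 2 fell in p53 KO cells, 14 rose and 3 fell in wild type, and the interaction was lower for 11 and higher for 2. Acer2, a ceramidase of this list, was a reduced rise with an interaction of -2.69 (SE 0.26, edgeR adjusted p = 0.0004). Of 11 NF-kappaB targets 3 rose in p53 KO cells, 4 rose and 4 fell in wild type, and 5 had a higher and 2 a lower interaction. Traf1, an adaptor of tumour necrosis factor receptors, had 9.40 and 7.71 CPM in p53 KO cells after doxorubicin, against 2.27 and 2.33 CPM in controls, and in wild-type cells 52.4 and 71.8 CPM after doxorubicin against 0.932 and 0.673 CPM in controls. It was a reduced rise with an interaction of -4.38 (SE 0.39, edgeR adjusted p = 0.00035). Of 21 ribosome biogenesis genes 6 had a higher and 1 a lower interaction, of 23 replication-dependent histone genes 4 a lower one, and of 15 MYC network genes 3 a higher and 2 a lower one. Of 12 BCL2 family genes 2 had a higher and 2 a lower interaction, and of 19 germline genes 1 and 1.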

How the data were processed

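The response was measured in 4 wild-type and 4 p53 KO libraries of polyadenylated RNA. The authors deposited counts per gene and FPKM values; TopHat2, DESeq and DESeq2 and build mm10 are named in the submitters' processing notes, and the counter is not given in the sources used here. For 98.28% of 10557 genes, the deposited FPKM fit the whole gene span within 1%, so the FPKM were divided by that span. This fit does not show whether reads in introns were counted. Between 26.4% and 33.4% of counts of 500 or more were odd, so reads are not independent molecules, and the floor of 3 counts covers counting error only. A count column of a Dux KO control repeated that of a treated Dux KO library in 54532 of 54532 genes and was left out, which leaves 1 Dux KO control, assumed to vary like the other groups. The 6 deposited group averages were not used. All tests came from edgeR 4.0.16 (R 4.3.3), fitted with 1 mean per group to 11 libraries after TMM normalization and the default low-count filter, with Benjamini-Hochberg adjustment over 28643 genes; CPM are TMM-scaled. limma 3.58.1 on log2(FPKM + 1), DESeq2 1.42.0, other filters and left-out libraries were alternatives. Labels pair the p53 KO libraries by line; deviations from group means correlated at 0.709 across 14553 genes. Nothing says that the wild-type libraries came from separate cultures, so p-values may measure technical spread. Named genes were the 6 with the largest interaction per class and direction at a mean of at least 5 CPM, and up to 4 per list at 1 CPM; Apaf1, Atf4, Btg2, Ddx58, Eda2r, Ephx1, Esrrb, Gtse1, Myd88, Oas1a, Phlda3, Plk2, Sox2, Stat2, Trp53inp1, Zscan4c and the genes with printed p53 sites were added after their values were seen. Members and the 29 lists were chosen with earlier results of these data known.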

Additional observations from a re-analysis of the deposited data

Results flagged for a closer look

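In 18 named genes both p53 KO lines moved one way after doxorubicin and the wild-type libraries moved the other way, and the difference itself was called by edgeR's interaction test. All values are the log2 interaction, p53 KO response minus wild-type response. Among genes that rose in wild type and fell in p53 KO cells they were -6.212 for Hs3st6, a heparan sulfate sulfotransferase, -3.432 for Diaph3, -2.961 for Arl15, -2.76 for Fto, -2.615 for Tmem135, -2.593 for Zap70, a kinase of lymphocyte receptors, -2.144 for Cdkn1a and -1.52 for Mcl1. Among genes that fell in wild type and rose in p53 KO cells they were 4.385 for Lefty1, 4.199 for Cd79b, 4.16 for Parp14, 3.808 for Dclk3, 3.692 for Lefty2, 3.659 for Kirrel2, 2.41 for Lin28a, 2.056 for Trim12c, 1.16 for Eif2ak2, the kinase PKR, and 1.062 for Brca2. These genes belong to the reversed class by its definition, so their signs are no separate support for it.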

How the results depend on the processing

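Of 3955 gene values 3474 kept their direction and side of the threshold, 350 lost the call, 119 gained it and 12 turned their sign, all of them interactions that were called neither as reported nor in that alternative. Without p53 KO line 2 the interaction was 3.441 for Rprm, 0.5422 for Usp18 and 1.124 for Duxf3. When 1 library was left out it ranged from -2.76 to 3.101 for Rprm, -4.666 to 0.8169 for Krt8, -2.828 to 0.5436 for Acta2, -4.308 to 0.981 for Usp18, -9.379 to 0.3293 for Duxf3, -4.301 to 2.131 for Phlda3, -6.85 to 2.881 for Eda2r and -1.848 to 0.04687 for Btg2. Of the 192 named genes 36, 38, 26 and 40 lost a call without wild-type control a, control b, treated a and treated b. The number of interaction calls, 5798, ranged from 3077 to 6357 when 1 library was left out, and was lowest without any single wild-type library (3181 and 3077 without control a or b, 3562 and 3100 without treated a or b). Leaving out 1 library gave 10397 to 16159 wild-type calls, 3267 to 4879 p53 KO calls, 2383 to 4773 lost, 344 to 1018 reduced, 107 to 319 reversed, 1852 to 2811 kept, 171 to 478 enlarged and 5514 to 8887 undecided responses. Leaving out p53 KO line 1 or line 2 whole gave 8730 and 9415 interaction calls, 1304 and 1734 reduced, 694 and 644 reversed, and 872 and 835 enlarged responses. The replicate block by p53 KO line gave 10796 interaction and 10876 p53 KO calls, 2853 reduced, 1093 reversed, 4428 kept, 1258 enlarged and 4509 undecided responses, and of 192 named genes 22 gained a call and 0 lost one. DESeq2 gave 1341 reduced, 431 reversed and 638 enlarged responses. A fit to the 8 wild-type and p53 KO libraries only tested 25977 genes and gave 4705 interaction and 3911 p53 KO calls. In that fit 16 of the 192 named genes lost a call and 0 gained one. limma on FPKM plus 1 gave 7846 wild-type and 2229 p53 KO calls, 338 reduced, 769 kept and 2769 undecided responses; with 0.1 added 7969, 2281, 409, 837 and 2822; and without a filter 345 reduced, 1028 kept and 1090 enlarged. A mean of at least 1 CPM gave 3972 undecided responses. At an adjusted p under 0.01 there were 2623 interaction and 1430 p53 KO calls, 2283 lost, 138 reduced, 36 reversed, 940 kept and 100 enlarged responses. Asking also for a log2 change of at least 1 gave 2742 p53 KO calls, 410 reduced, 82 reversed, 1473 kept and 225 enlarged responses. The causes of these differences were not tested. RLE scaling moved the median interaction of the tested genes by -0.122. With limma on FPKM plus 1, which tested 14614 genes after an FPKM filter, the median differed by 0.236. Without that filter it differed by -0.0432. The share of interaction calls that were higher was 48.9% with TMM and 39.9% with RLE. It was 61.7% on FPKM plus 1 and 46.4% without the filter. On FPKM the p53 KO fall of Cdkn1a was not called, and Plk2, Ephx1 and Fas gained a called interaction. With 2 libraries per group, responses that were not called may still be present.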
